A study of Drosophila melanogaster with 8 samples.

Results

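The regions described here are the 260 most highly expressed promoters on the chromosome arms 2L and 3L in S2 cells, a line derived from embryos of Drosophila melanogaster. In CAGE (cap analysis of gene expression) a tag is read from the 5′ end of a capped RNA and places its transcription start site (TSS) on a base and a strand. Positions were joined into tag clusters (TCs), and the promoters were chosen by mean expression over all 8 libraries, which had to reach 200 TPM (tags scaled to a common library total). Of 242639 TCs on the parts of both arms that were used, 260 passed, with 135 on 2L and 125 on 3L, and the whole series held 688364 TCs. The level therefore chose these promoters and is given only as a description. All positions are those of the dm3 genome. No gene annotation or sequence of dm3 was used here, so each promoter is named by its rank in mean TPM and by its position, and whether it lies at an annotated gene start, exon or intron was not analysed here.

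A core promoter is the stretch of DNA where the transcription machinery assembles and starts an RNA. In flies as in mammals some core promoters start RNAs at nearly a single base and others over a broad stretch, and the upstream side of a promoter can start RNAs on the opposite strand. Many of these antisense RNAs are short-lived because the nuclear RNA exosome, a complex of ribonucleases that includes Dis3 and Rrp6, degrades them from the 3′ end. The study depleted both enzymes with double-stranded RNA (dsRNA) and used dsRNA against GFP, a protein that the cells do not carry, as the control. Cells of both conditions were otherwise grown and treated with dsRNA alike, on 2 occasions 2 days apart, and were harvested 4 days after the first treatment.

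Of the 8 libraries, 4 are labelled control and 4 are labelled exosome knockdown. The labels are in doubt, because the names given to the files themselves, as well as the library sizes behind the columns of a supplementary table of the study, put all 8 libraries the other way round. Dis3 and Rrp6 themselves were not analysed here, so the question cannot be settled from the depleted RNAs. Each library is therefore called by its label, and every change sets the 4 labelled control (the labelled controls) against the 4 labelled exosome knockdown (the labelled knockdowns). By both of these the labelled controls would be the depleted cells. The study speaks of biological replicates, and how they were grown apart is not described in the sources used here, so p-values measure the spread between these libraries, whatever it includes. The libraries were barcoded, pooled in sets of 4 and sequenced in 2 rounds. The pool of each library is not named, so the effects of pool and group cannot be told apart if they coincide.

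The libraries held between 33565925 and 46388382 tags. The 260 promoters took between 11.8% and 13.1% of all tags in the labelled controls and between 14.9% and 16.9% in the labelled knockdowns, so that the groups did not overlap in this share. A single TC outside both arms, the most tagged of the series, took between 4.71% and 6.20% of the tags in the former and between 0.643% and 0.825% in the latter. TPM are relative to all tags of a library, so changes were tested on counts in edgeR, whose TMM factors scale libraries by the bulk of their TCs, and were called at an adjusted p of 0.05. In such bulk RNA, fewer RNAs per cell and fewer cells with the RNA cannot be told apart.

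Expression was concentrated in a few promoters. Mean expression ranged from 200 to 5260.3 TPM with a median of 324 TPM. A total of 31 promoters exceeded 1000 TPM and 76 reached 500 TPM, while 115 lay under 300 TPM. Only 117 promoters reached 200 TPM in every library. At the threshold, promoter 259 had a mean of 200.4 TPM and promoter 260 had 200 TPM, and the first TCs left out had 199.6 TPM (3L, bases 5804068 to 5804090, plus strand) and 199.4 TPM (2L, base 129240, minus strand). Promoters of 2L and 3L were spread along both arms, with a median of 78560 bp between neighbours on either strand. The median promoter differed 2.51-fold between its highest and its lowest library. At 200 TPM the counting error of the smallest library was 1.22% of the value, and the median coefficient of variation within a group was 16.3% in the labelled controls and 17.8% in the labelled knockdowns. No removal of duplicate reads is stated, so tags are not independent molecules and this error covers counting alone.

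**Figure D1:**
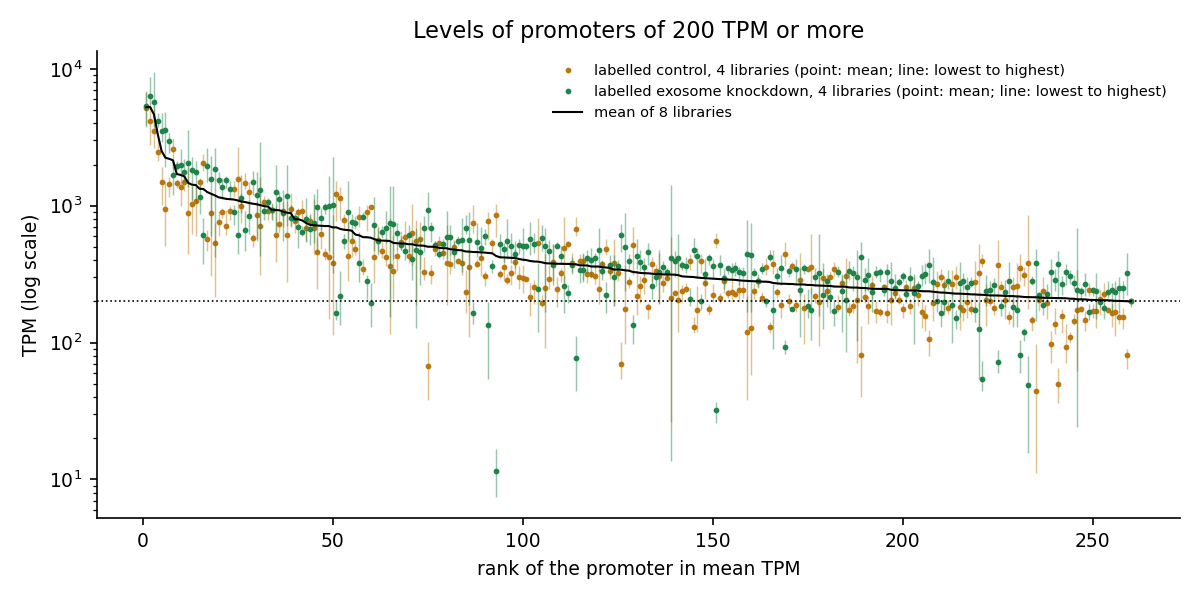
Expression of each of the 260 promoters in TPM (log scale) against its rank, with the mean of each group as a point, the lowest to highest library of the group as a line, the mean of 8 libraries in black and the threshold of 200 TPM dotted. Levels fall from 5260.3 to 200 TPM, and promoters 93, 151 and 75 have group means far apart.

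Promoter 1 (3L, bases 13349636 to 13349637, plus strand) was the strongest. Promoter 1 had 4637, 5302, 6835 and 3910.4 TPM in the labelled controls and 6138, 4658, 6823 and 3778 TPM in the labelled knockdowns. The groups overlapped over their whole range (log2 fold change -0.14, standard error 0.24, adjusted p = 0.632 in edgeR's quasi-likelihood test). Promoter 2 (2L, bases 419955 to 419958, plus strand) had 2765, 4129, 4069.8 and 5623 TPM in the labelled controls and 5524, 8749, 5671 and 5533 TPM in the labelled knockdowns. It was lower in the labelled controls by edgeR (log2 fold change -0.73, standard error 0.27, adjusted p = 0.0396), although a single library labelled control lay within the range of the other group, and the call was lost without replicates 1, 2 or 3 labelled control or replicates 2 or 3 labelled exosome knockdown (adjusted p = 0.0508 to 0.125). The call was also lost in a fit of TCs above 10 TPM and with library totals, whole or less the most tagged TC, in place of TMM (adjusted p = 0.0568 to 0.154, edgeR). Promoter 3 (3L, bases 13034904 to 13034911, plus strand) varied most between libraries among these, with 2692, 3315, 2625 and 5486 TPM in the labelled controls and 3791, 9491, 4601 and 5143 TPM in the labelled knockdowns. Replicate 2 labelled exosome knockdown was the highest library at both promoters 2 and 3, and promoter 3 did not pass the test (log2 fold change -0.83, standard error 0.36, adjusted p = 0.0663), though it did without replicate 4 labelled control or replicate 1 labelled exosome knockdown (adjusted p = 0.0182 to 0.0432).

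Ranks 4 to 6 each kept a single base after bases with under 0.1 of the tags of the most used base were dropped. Promoter 4 (2L, base 1727712, minus strand) had 2481 ± 412 TPM in the labelled controls and 4159 ± 408 TPM in the labelled knockdowns (SD, n = 4 each, log2 fold change -0.83, standard error 0.19, adjusted p = 0.00308, edgeR). Promoter 5 (2L, base 3478435, plus strand) had 1495 ± 377 TPM and 3535 ± 832 TPM (log2 fold change -1.32, standard error 0.25, adjusted p = 9.05e-04, edgeR). Promoter 6 (2L, base 7827242, minus strand) had 770.5, 973, 505 and 1507 TPM in the labelled controls and 1925, 4859, 3714 and 3686 TPM in the labelled knockdowns (log2 fold change -2.02, standard error 0.38, adjusted p = 9.28e-04, edgeR). These were lower in the labelled controls without overlap between the groups, for each of which the exact permutation test of 4 libraries against 4 gives its smallest two-sided value, p = 0.0286. Promoter 7 (2L, bases 2753238 to 2753239, plus strand) was lower in the same way, with 1429.5 ± 192 TPM against 2973 ± 414 TPM (log2 fold change -1.15, standard error 0.19, adjusted p = 3.88e-04, edgeR). Promoter 8 (2L, bases 21682107 to 21682114, minus strand) was the only one of the first 10 with a higher mean in the labelled controls, at 2604 ± 533 TPM against 1690.4 ± 394 TPM, and did not pass (log2 fold change 0.52, standard error 0.25, adjusted p = 0.0912, edgeR), though it did without replicate 3 labelled control or replicate 2 labelled exosome knockdown (adjusted p = 0.0302 to 0.0421). Promoter 9 (3L, bases 19787051 to 19787076, plus strand) was lower without overlap at 1455 ± 107 TPM against 1952 ± 163 TPM (log2 fold change -0.52, standard error 0.15, adjusted p = 0.0145, edgeR). Its call was lost in fits of TCs above 10 TPM or of at least 20 tags, and with library totals less the most tagged TC (adjusted p = 0.0630 to 0.0836, edgeR). Promoter 10 (2L, bases 4227702 to 4227722, plus strand) was lower at 1369 ± 349 TPM against 1989.6 ± 454 TPM where the libraries overlapped (log2 fold change -0.63, standard error 0.25, adjusted p = 0.0477, edgeR), and lost its call without replicates 1 or 3 labelled control or replicates 2 or 3 labelled exosome knockdown (adjusted p = 0.107 to 0.133). It also lost its call in the settings named for promoter 9, with library totals alone and with the size factors of DESeq2 (adjusted p = 0.0606 to 0.175, edgeR).

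More of the strongest promoters were called lower than higher in the labelled controls, which is a description, since the tags that chose them are also the tags tested. When edgeR was fitted over 30931 TCs of the genome and p-values were adjusted over all of them by Benjamini-Hochberg, all 260 promoters were tested, 127 were lower (48.8%, where 25.0% of all TCs tested were called lower) and 39 were higher (15.0%, where 34.4% of all were called higher). The median log2 fold change was -0.54, against 0.03 over all TCs tested. Single promoters ranged from -3.87 to 6.13, with a median standard error of 0.19. Both groups had a mean of at least 200 TPM at 169 promoters, of which 76 were lower and 17 higher, with a median log2 fold change of -0.51. The labelled controls alone had such a mean at 33 promoters, with 22 higher and 0 lower, and the labelled knockdowns alone at 58, with 0 higher and 51 lower. The choice itself favours a difference at promoters that passed through one group, so no p-value of their own level is given below. Of all calls, 55 were lower by more than 2-fold and 23 higher by more than 2-fold. The share of all TCs tested with calls of this size is not given here, so these counts have no background. The groups did not overlap in TPM at 95 promoters that were lower (36.5%, against 19.0% of all TCs tested) and 38 that were higher (14.6%, against 33.1%). On 2L 75 promoters were lower and 17 higher, and on 3L 52 were lower and 22 higher.

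Lower values went with higher expression over both arms, which is a description without a test. TCs of 50 to 200 TPM (n = 845) had a median log2 fold change of -0.23 and 38.1% called lower, those of 10 to 50 TPM (n = 1562) had -0.21 and 34.4%, and tested TCs under 10 TPM (n = 8229) had 0.09 and 23.1%. Within the 260 promoters the level and the change were hardly related (Spearman's rho -0.04 over promoters, which share the same libraries). The split of calls also moved with the scaling. When the fit and its TMM factors rested only on TCs above 10 TPM, 93 promoters were lower and 52 were higher. The median of the 260 was then -0.34, against -0.03 over all TCs of that fit, whose share called is not given here. The median change of all TCs was 0.03 with TMM and 0.20 with library totals less the most tagged TC, a scaling chosen after seeing the data, and that of the 260 promoters was -0.54 and -0.38.

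The 4 barcodes each occur once per group, so the change was also read within pairs of libraries that share a barcode. The median log2 ratio of the 260 promoters was -0.66, -0.27, -0.56 and -0.57 in the 4 pairs. In pairs of the same replicate number it was -0.47, -0.38, -0.65 and -0.39. Deviations of levels from the group mean did not follow the barcode over all TCs tested, with correlations of -0.229 to 0.070 in the barcode pairs. Over the 260 promoters these were -0.204 to 0.357, so the barcode was not shown to pair the libraries in level. With the barcode as a block in edgeR, 141 promoters were lower and 40 higher, among them promoters 3, 8 and 14, which did not pass without it. In this fit the median log2 fold change was -0.54 for the 260 promoters and 0.03 over all TCs tested. The share of all TCs called in it is not given here.

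**Figure D2:**
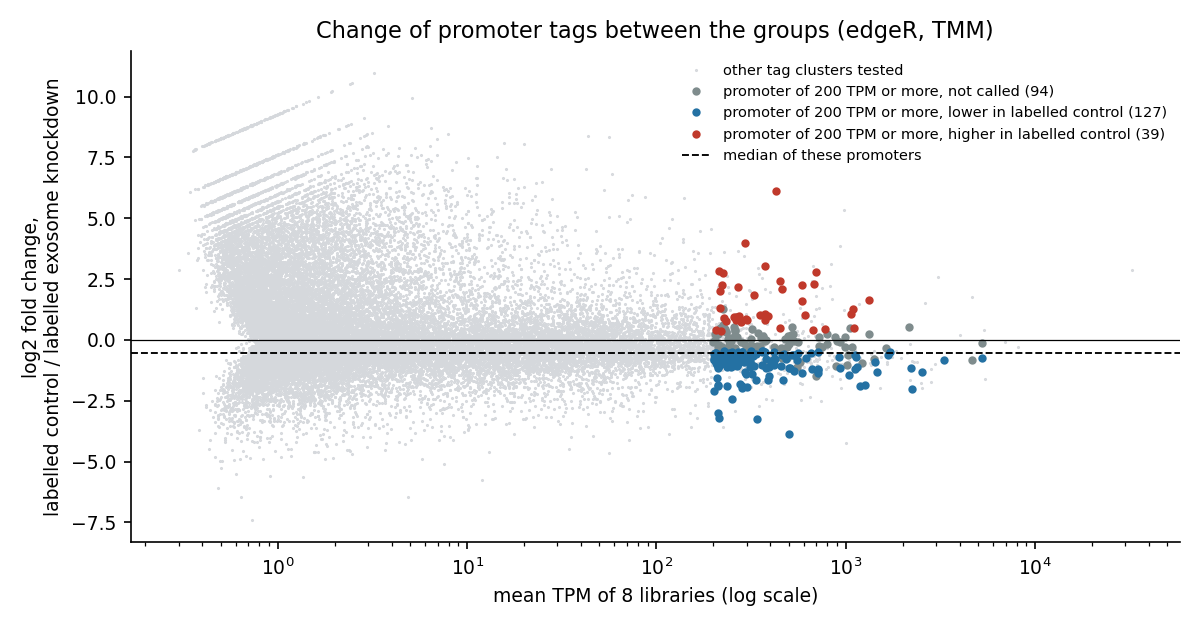
Log2 fold change of the labelled controls over the labelled knockdowns (edgeR with TMM scaling) against mean TPM (log scale), with the 260 promoters as large points coloured by call and the other TCs tested in grey. The dashed line marks the promoters' median of -0.54, and 127 points are lower and 39 higher.

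Among promoters that reached 200 TPM through the labelled controls alone, the change was largest at promoter 93 (3L, bases 7151196 to 7151201, plus strand). Promoter 93 had 909, 1034, 865 and 587 TPM in the labelled controls and 16.8, 9.41, 7.49 and 12.1 TPM in the labelled knockdowns (log2 fold change 6.13, standard error 0.32, edgeR). The ratio of the group means was 74.0, and no labelled knockdown reached 200 TPM. Promoter 151 (2L, bases 871097 to 871098, plus strand) had 630.4, 494, 549 and 534 TPM in the labelled controls and 36.4, 36.6, 30.4 and 25.8 TPM in the labelled knockdowns (log2 fold change 3.99, standard error 0.19, edgeR). Its values stayed within a narrow range in both groups. Promoter 114 (3L, bases 628436 to 628439, plus strand) had 829.8, 630.1, 603 and 620.0 TPM in the labelled controls and 111, 70.3, 80.0 and 44.5 TPM in the labelled knockdowns (log2 fold change 3.04, standard error 0.27, edgeR). Promoter 233 (3L, bases 19079518 to 19079521, minus strand) had 177, 210.3, 860.4 and 275 TPM in the labelled controls and 77.7, 79.7, 23.4 and 15.5 TPM in the labelled knockdowns (log2 fold change 2.82, standard error 0.65, edgeR). At promoter 233 replicate 3 labelled control stood far above the rest of its group, and without it the log2 fold change was 2.07. None of these groups overlapped, which was a condition for naming these promoters. The start positions in use were alike in both groups at promoter 93, where 47.0% of the tags of the labelled controls and 47.6% of those of the labelled knockdowns lay at the summit, the most used base.

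Among promoters that reached 200 TPM through the labelled knockdowns alone, the change was largest at promoter 75 (3L, base 19599331, plus strand). Promoter 75 had 52.4, 101.1, 38.1 and 78.7 TPM in the labelled controls and 910.5, 892, 1264 and 679.7 TPM in the labelled knockdowns (log2 fold change -3.87, standard error 0.35, edgeR), a ratio of 13.9 between the group means. Promoter 126 (2L, base 13841537, minus strand) had 54.3, 58.1, 100.3 and 64.6 TPM in the labelled controls and 602, 460.1, 736 and 650.2 TPM in the labelled knockdowns (log2 fold change -3.23, standard error 0.22, edgeR). Both kept a single base after weaker bases were dropped, and both were low in every labelled control. Promoter 235 (2L, bases 7998949 to 7998951, plus strand) had 29.7, 39.5, 11.2 and 97.6 TPM in the labelled controls and 485, 436, 143 and 472 TPM in the labelled knockdowns (log2 fold change -3.20, standard error 0.61, edgeR), with more than 3-fold spread within either group. Promoter 241 (3L, base 648776, plus strand) had 36.1, 53.8, 44.6 and 65.2 TPM in the labelled controls and 468, 452, 358 and 211 TPM in the labelled knockdowns (log2 fold change -3.00, standard error 0.30, edgeR). Promoters 75, 126, 235 and 241 lay under 200 TPM in every labelled control, so that the values that chose them also set their change. None of these groups overlapped either, which was again a condition for naming them, and no fall reached the size of the rise at promoter 93.

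Other promoters differed between libraries more than between groups. Promoter 139 (3L, bases 5570429 to 5570443, minus strand), chosen after its values were seen, had 165, 69.2, 26.4 and 592 TPM in the labelled controls and 199.7, 25.7, 13.5 and 1419 TPM in the labelled knockdowns (log2 fold change -1.0, standard error 1.25, adjusted p = 0.51, edgeR). Replicate 4 was the highest and replicate 3 the lowest in both groups. Promoter 246 (2L, bases 2845726 to 2845737, minus strand), also named after its values were seen, repeated this order, with 159, 128, 62.0 and 339 TPM in the labelled controls and 196, 63.6, 24.3 and 684 TPM in the labelled knockdowns (log2 fold change -0.54, standard error 0.82, edgeR). At the other end, promoter 260 (2L, bases 5980981 to 5980982, minus strand) had 183 to 213 TPM over all 8 libraries.

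The strongest promoters were narrow, and those up to 20 bp wide varied more between libraries than wider ones. Of the 260 promoters, 57 consisted of a single base, and the median width was 11 bp, against 23 bp for TCs of 50 to 200 TPM on both arms. The summit held a median of 53.0% of the tags, against 40.1% over all TCs tested, and more than 50% of the tags at 136 promoters. Width classes were chosen after the values were seen. The median SD of log2 TPM within a group was 0.37, 0.31, 0.27, 0.18 and 0.17 in the labelled controls for widths of 1, 2 to 5, 6 to 20, 21 to 40 and over 40 bp, and 0.37, 0.44, 0.33, 0.18 and 0.19 in the labelled knockdowns. Promoters wider than 20 bp thus had about the same spread in both groups, and narrower ones had more (Spearman's rho of width and SD -0.43 and -0.48 over promoters, which share the same libraries). In the labelled knockdowns the median was higher at 2 to 5 bp than at a single base. TCs of 50 to 200 TPM had 0.31 at a single base, 0.38 at 2 to 5 bp and 0.20 over 40 bp in the labelled controls. In the 57 promoters of a single base 28 were lower (49.1%, against 24.5% of all TCs tested of that width) and 8 higher (14.04%, against 31.999%), and in the 49 wider than 40 bp 27 were lower (55.1%, against 26.5%) and 7 higher (14.3%, against 33.7%).

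**Figure D3:**
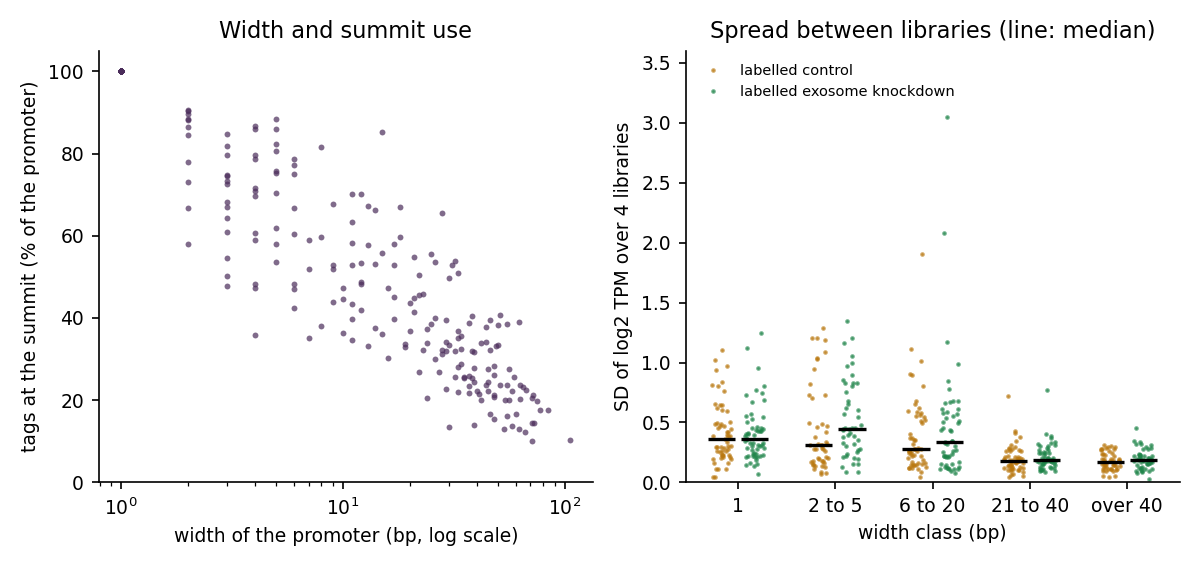
Left, share of tags at the summit against promoter width (log scale) for the 260 promoters. Right, the SD of log2 TPM over the 4 libraries of each group by width class, one point per promoter and a line at the median, with medians of 0.37 at 1 bp and 0.17 over 40 bp in the labelled controls.

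The widest promoter was promoter 121 (3L, bases 5803930 to 5804035, minus strand) with 106 bp and only 10.2% of the tags at its summit. Promoter 121 ranged from 286 to 404 TPM over the libraries and did not pass the test (log2 fold change 0.08, standard error 0.16, adjusted p = 0.683, edgeR). Promoter 169 (3L, bases 12494357 to 12494440, minus strand) was 84 bp wide with 17.6% of the tags at its summit. It rose without overlap, with 444, 364, 545 and 429.5 TPM in the labelled controls and 104, 90.0, 93.3 and 81.9 TPM in the labelled knockdowns (log2 fold change 2.17, standard error 0.16, edgeR). Promoter 248 (3L, bases 4170377 to 4170453, plus strand) was 77 bp wide with 17.6% of the tags at its summit. It was lower at 147 ± 19.6 TPM against 267 ± 50.9 TPM (log2 fold change -0.95, standard error 0.19, edgeR). These wide promoters thus included one of each outcome.

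Little difference in the use of the summit was detected between the groups. Of the 203 promoters with several positions, 141 had the same summit in all 8 libraries. In limma on the log2 odds of summit tags, fitted over 15395 TCs, none of the 203 promoters passed an adjusted p of 0.05 (0.104% of all were called higher and 0.0909% lower). The lowest adjusted p was 0.0635. An unadjusted p under 0.05 was found at 28 of the 203 promoters and at 1857 of all 15395 TCs. The groups did not overlap in summit use at 9 promoters that were higher and 17 that were lower, where 3.85% and 5.2% of all TCs tested did not. The median size of the difference was 0.18 on the log2 scale, about its median standard error of 0.19. When 100 tags in every library were required, 1 promoter was called higher and 3 were called lower.

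The start positions in use moved with the barcode of the library. The deviations of the log2 odds of summit use from the group mean were correlated across the 203 promoters between the libraries of both groups. Deviations of a group sum to 0, so the pairs cannot all correlate positively. The 4 pairs of libraries with the same barcode gave Pearson's r of 0.641 to 0.844, each of the 8 libraries was closest to the library of its own barcode, and the 12 other pairs gave -0.687 to 0.557. Over all 15395 TCs the pairs of the same barcode gave 0.229 to 0.324, and again all 8 libraries were closest to their own barcode. These are descriptions over promoters measured in the same libraries. The barcode stands at the start of each read, before the bases that give the TSS, per the sample descriptions, and its part in the positions was not tested. With the barcode as a block in limma the median standard error of the difference between the groups was 0.14 in place of 0.19. In this fit 43 of the 203 promoters had an unadjusted p under 0.05, as had 2639 of all 15395 TCs. None of the promoters passed the adjustment (lowest adjusted p = 0.128).

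**Figure D4:**
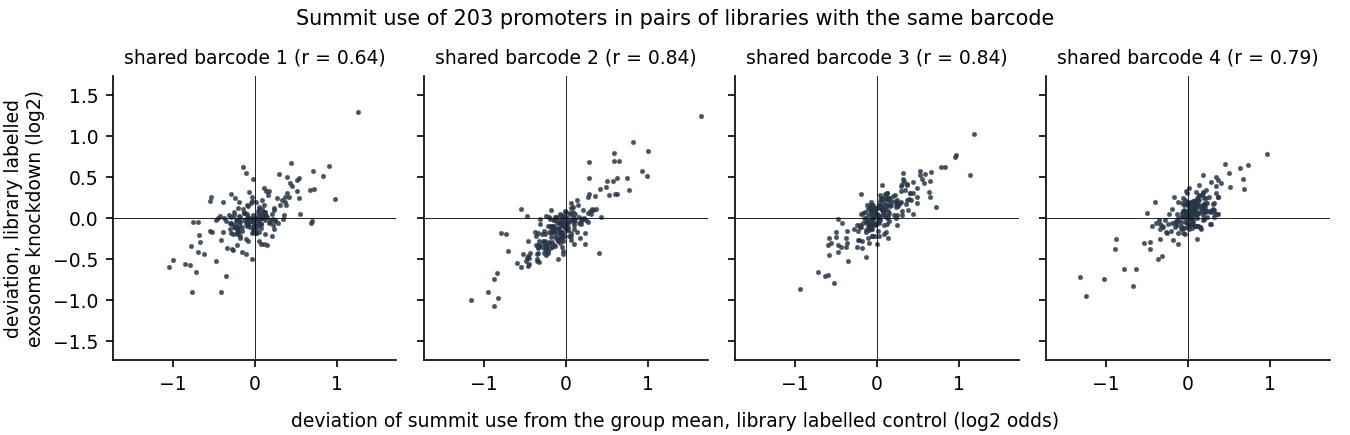
Deviation of summit use (log2 odds of tags at the summit) from the group mean in the library labelled exosome knockdown against that in the library labelled control, one panel per barcode and one point for each of 203 promoters. Points follow the diagonal in all 4 panels, with r from 0.641 to 0.844.

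Promoter 2 shows this base by base. The position before its summit, 419957, held 49.7% of the promoter's tags in replicate 3 labelled control and 48.5% in replicate 1 labelled exosome knockdown, which share a barcode, and between 26.3% and 33.8% in the 6 other libraries. These were the only libraries in which 419957 was the most used base, in place of 419958. At promoter 3, position 13034905 lay 5 bp before the summit and was the most used base in 3 libraries. It held 37.9% in replicate 4 labelled control and 44.97% in replicate 2 labelled exosome knockdown, which share a barcode, 37.4% in replicate 1 labelled exosome knockdown, and between 16.8% and 35.6% elsewhere. At promoter 14 the summit held 49.4% and 56.2% in the same pair of libraries. It held 31.1% in replicate 1 labelled control and 41.8% in replicate 3 labelled exosome knockdown, another pair with a shared barcode. Promoter 1, with 88.1% of its tags at a single base, kept its summit in all 8 libraries.

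Antisense tags upstream of these promoters did not share a direction. Opposite-strand tags were counted within 500 bp upstream of each summit. The rule for members did not use them for the promoter itself. At 6 promoters that face another member within 500 bp, the window holds tags by which that other member was chosen. The median window had 0.590 TPM, or 0.169% of the promoter's own level, and 11 windows held no tag in any library. Of 173 windows with at least 20 tags, 57 were higher (32.9%, where 38.8% of all windows tested were) and 47 were lower (27.2%, where 17.9% of all were) in the labelled controls by edgeR. The median log2 fold change was -0.02, against 0.38 over all windows. The groups did not overlap at 51 windows that were higher and 39 that were lower, where 37.6% and 14.1% of all windows did not. The other 87 promoters had too few antisense tags to test. An upstream antisense TC above the filter lay within 500 bp at 108 promoters (41.5%), against 34.8% of the TCs tested on both arms. The share was higher at the next levels, with 43.9% at 50 to 200 TPM and 47.6% at 10 to 50 TPM. It was 31.2% under 10 TPM.

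Calls in weak antisense windows were mostly higher and those in strong ones mostly lower. Among the 55 tested windows under 1 TPM, 24 were higher and 4 lower, and among the 35 of 1 to 10 TPM, 23 were higher and 4 lower. Among the 75 of 10 to 200 TPM, 10 were higher and 35 lower, and of 8 windows of 200 TPM or more, 0 were higher and 4 lower. The windows of all TCs tested showed the same order, with 38.6% higher and 8.59% lower under 1 TPM, 48.6% and 18.0% at 1 to 10 TPM, 25.5% and 36.7% at 10 to 200 TPM, and 19.9% and 50.7% from 200 TPM. The promoters described here had 43.6% higher and 7.27% lower under 1 TPM and 65.7% and 11.4% at 1 to 10 TPM. The classes were chosen after the values were seen. A strong window can hold the promoter of a neighbouring gene, which was not analysed here.

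**Figure D5:**
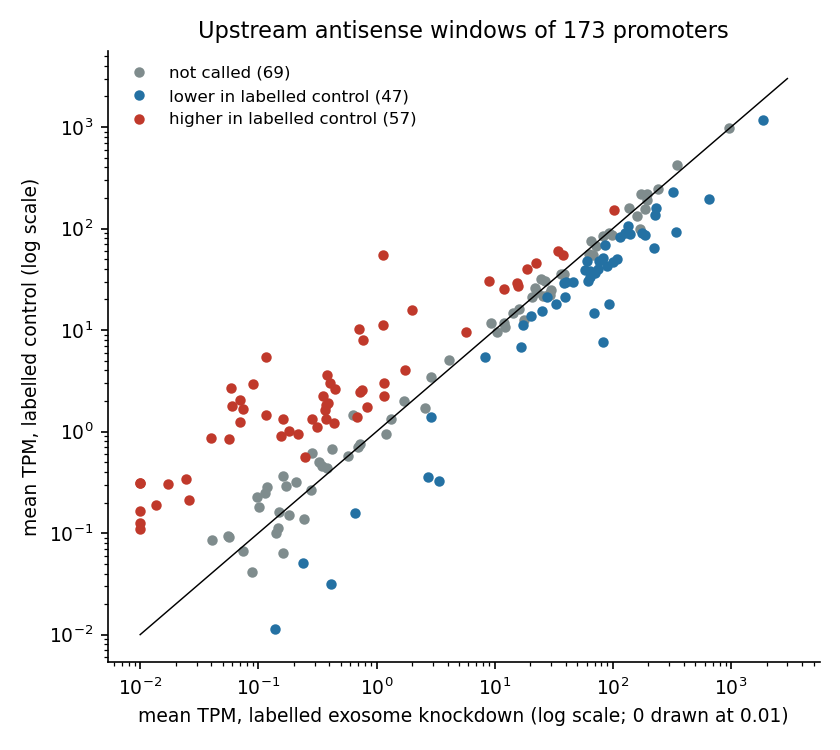
Mean TPM of the 173 tested upstream antisense windows in the labelled controls against the labelled knockdowns (log scales, values of 0 drawn at 0.01, line of equality in black), coloured by call. Windows with weak signal lie mostly above the line, where 57 were called higher, and most of the 47 called lower are among the strong ones.

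Promoter 90 (3L, bases 16122714 to 16122740, plus strand) had the largest antisense rise among windows with tags in both groups. Its antisense window had 47.7, 51.8, 87.3 and 34.8 TPM in the labelled controls and 1.71, 1.52, 0.572 and 0.738 TPM in the labelled knockdowns (log2 fold change 5.50, standard error 0.40, adjusted p = 3.01e-07, edgeR), while its own tags were lower at 306 ± 36.2 TPM against 603 ± 67.8 TPM (log2 fold change -1.07, standard error 0.16, adjusted p = 2.52e-04, edgeR). The size of the rise was not measurable at promoters 16 and 93, where the labelled knockdowns held no antisense tag, and only a lower bound is given. Promoter 16 (2L, bases 12421857 to 12421859, minus strand) had 52 antisense tags in the labelled controls, or 0.202, 0.236, 0.431 and 0.380 TPM, and none in any labelled knockdown. Against a floor of 3 tags over that group this was at least 15.95-fold higher. Promoter 93 had 29 antisense tags in the labelled controls and none in the labelled knockdowns, which was at least 8.90-fold higher on the same floor. Both windows were weak, and the promoters themselves were also higher, promoter 16 with 2035 ± 259 TPM against 613 ± 183 TPM (log2 fold change 1.62, standard error 0.25, adjusted p = 2.38e-04, edgeR).

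The largest antisense falls were upstream of promoters 42, 257 and 75. The window of promoter 257 (2L, bases 19577284 to 19577311, minus strand) had 7.67, 7.28, 5.37 and 10.5 TPM in the labelled controls and 80.3, 104, 89.8 and 54.8 TPM in the labelled knockdowns (log2 fold change -3.53, standard error 0.27, adjusted p = 3.99e-07, edgeR), and the promoter was lower too (log2 fold change -0.81, standard error 0.21, edgeR). The window of promoter 75 had 0.405, 0.499, 0.0862 and 0.326 TPM and 4.15, 4.11, 2.13 and 3.17 TPM (log2 fold change -3.46, standard error 0.44, adjusted p = 2.65e-05, edgeR), so that both strands fell at this promoter. The window of promoter 42 (3L, bases 16567746 to 16567790, plus strand) held 5 tags in the labelled controls and 65 in the labelled knockdowns (log2 fold change -3.72, standard error 0.75, adjusted p = 9.66e-04, edgeR), while the promoter itself was higher without overlap (log2 fold change 0.44, standard error 0.15, adjusted p = 0.0291, edgeR), a call that was lost without replicates 2 or 3 labelled control or replicates 3 or 4 labelled exosome knockdown (adjusted p = 0.0599 to 0.0743).

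Over all promoters with a tested window, the calls on both strands were compared. Of the 39 higher promoters, 19 had a higher and 4 a lower antisense window, and 12 had none to test. Of the 127 lower promoters, 18 had a higher and 26 a lower window, and 46 had none to test. Of the windows tested, 70.4% were higher and 14.8% lower at higher promoters, against 72.6% and 4.83% at all higher TCs. At lower promoters 22.2% were higher and 32.1% lower, against 13.5% and 42.1% at all lower TCs. Whether these shares differ was not tested.

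Promoters 34 and 14 form the strongest divergent pair, 457 bp between summits, and each is the main part of the other's antisense window. Promoter 14 (3L, bases 3222950 to 3222958, minus strand) had 1077 ± 391 TPM in the labelled controls and 1755 ± 473 TPM in the labelled knockdowns and did not pass (log2 fold change -0.80, standard error 0.32, adjusted p = 0.0506, edgeR), though it did without replicates 2 or 4 labelled control or replicate 1 labelled exosome knockdown (adjusted p = 0.0222 to 0.0393). Promoter 34 (3L, bases 3223347 to 3223417, plus strand) had 936 ± 126 TPM and 930.3 ± 113 TPM (log2 fold change -0.09, standard error 0.18, adjusted p = 0.689, edgeR). As the antisense window of promoter 34, which takes in the starts of promoter 14, the tags were called lower (log2 fold change -0.76, standard error 0.28, adjusted p = 0.0338, edgeR), and this call was lost without replicates 1 or 3 labelled control or replicates 2, 3 or 4 labelled exosome knockdown (adjusted p = 0.0506 to 0.106). Promoters 115 and 145 lie 403 bp apart. Promoter 115 (2L, bases 12056351 to 12056360, plus strand) had 398 ± 33.9 TPM and 336 ± 51.0 TPM (log2 fold change 0.14, standard error 0.18, adjusted p = 0.505, edgeR). Promoter 145 (2L, bases 12055948 to 12055950, minus strand) had 153, 126, 124 and 118 TPM in the labelled controls and 446, 435, 421 and 586 TPM in the labelled knockdowns (log2 fold change -1.95, standard error 0.16, edgeR). Promoters 251 and 259 lie 495 bp apart. Promoter 251 (2L, bases 544632 to 544637, minus strand) had 171 ± 47.1 TPM and 237 ± 79.2 TPM (log2 fold change -0.55, standard error 0.26, edgeR), with overlapping groups. Promoter 259 (2L, base 545132, plus strand) was lower without overlap at 80.6 ± 12.0 TPM and 320.2 ± 98.1 TPM (log2 fold change -2.09, standard error 0.24, edgeR). No other members faced each other within 500 bp, and the difference between the changes of a pair was not tested.

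Sense tags downstream of a promoter moved with the promoter. Same-strand tags from beyond 100 to 1000 bp downstream of the summit amounted to a median of 2.09% of the promoter's own level, and exceeded 10% at 26 promoters. Of 258 windows tested, 95 were lower (36.8%, where 22.2% of all were) and 52 were higher (20.2%, where 34.0% of all were) in the labelled controls by edgeR, with a median log2 fold change of -0.38 against 0.09 over all windows. The groups did not overlap at 74 windows that were lower and 51 that were higher, where 17.2% and 32.3% of all windows did not. Of the 39 higher promoters, 30 had a higher downstream window and 0 a lower one, or 76.9% of those tested against 78.6% at all higher TCs. Of the 127 lower promoters, 81 had a lower downstream window and 6 a higher one, or 64.3% lower of those tested against 63.2% at all lower TCs, so both shares lay near the background. Across the 258 promoters the changes of promoter and window gave Spearman's rho of 0.79, over promoters that share the same libraries. A window can hold the starts of another promoter.

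Other members lay within the windows of some promoters with the most downstream tags. Promoter 17 (2L, base 2752804, plus strand) had 183% of its own level downstream, where promoter 7 lies 435 bp away. Promoter 17 was lower at 574 ± 83.2 TPM against 1944 ± 495 TPM (log2 fold change -1.85, standard error 0.22, adjusted p = 4.33e-05, edgeR), as promoter 7 was. Promoter 51 (2L, base 870468, plus strand) had 61.2% downstream, where promoter 151 lies 630 bp away. Promoter 51 had 1513, 1473, 1141 and 772 TPM in the labelled controls and 147, 153, 204 and 153 TPM in the labelled knockdowns (log2 fold change 2.81, standard error 0.25, edgeR), and so rose with promoter 151. Promoter 260 had 93.9% downstream with no other member within 1000 bp, and neither its promoter nor its window passed the test (log2 fold change of the window -0.39, standard error 0.24, adjusted p = 0.193, edgeR). Only 3 pairs of members lay on the same strand within 1000 bp of each other.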

How the data were processed

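CAGE tags were measured in 8 libraries of S2 cells. Per the paper's methods the authors removed linkers and low-quality reads, and kept reads that Bowtie 1.1.1 placed once in dm3. What they deposited are counts of tag starts for each base and strand, not normalized. Library totals, 33565925 to 46388382 tags, gave TPM.

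As in the study, bases with at least 2 tags in any library were joined on each strand over gaps of up to 20 bp. Bases under 0.1 of the summit were dropped before a second joining. Counts of TCs above 1 TPM in 2 libraries of a group, of upstream antisense windows and of downstream windows were fitted by quasi-likelihood with TMM scaling in edgeR 4.0.16 and summit use with limma 3.58.1 (an offset of 0.5 tags), with Benjamini-Hochberg adjustment over the whole genome at 0.05. Standard errors given with edgeR were derived from its test, as the size of the log2 fold change over the square root of the F statistic. Exact permutation tests served for single promoters. DESeq2 1.42.0 was an alternative, beside other scalings, filters, windows, blocks and leaving out each library. Scripts ran in R 4.3.3 and in Python 3.11.15 with pandas 2.3.3 and matplotlib 3.10.9. The tests and the clustering were tested on simulated data. Among 6000 simulated TCs with the levels of all TCs tested, edgeR found 74 of 100 changes of 4-fold and 19 of 100 of 2-fold, with 2 false calls. For summit use, limma found 104 of 200 changes of 2-fold in the odds, with 2 false calls. A change that was not called is therefore not shown to be absent. No 2 libraries of the same group were copies, since they differed by more than counting error. Pairs across the groups were not compared in this way.

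Promoters named are the 10 strongest, the 4 that rose and the 4 that fell most without overlap, and the 3 at each extreme of width, single bases, antisense and downstream signal, summit use and divergent pairs, besides those at the threshold. The members and lists were chosen with earlier results of these data known. Gene names and sequences are not given, since the reference at hand is not of dm3.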

Additional observations from a re-analysis of the deposited data

Results flagged for a closer look

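Of 86 groups of 4 libraries at the named promoters, 7 held a library far from the rest by Dixon's test, which chance does in about 1 of 20 groups. Over all 260 promoters 29 of 520 groups (5.58%) did so. Promoter 2 had 8749 TPM, where the others of its group had 5524 to 5671 TPM, in replicate 2 labelled exosome knockdown. Promoter 51 had 204 TPM, where the others of its group had 147 to 153 TPM, in replicate 3 labelled exosome knockdown. The antisense window of promoter 93 had 0.388 TPM, where the others of its group had 0.0815 to 0.105 TPM, in replicate 3 labelled control. Promoter 114 had 829.8 TPM, where the others of its group had 603 to 630.1 TPM, in replicate 1 labelled control. Promoter 145 had 586 TPM, where the others of its group had 421 to 446 TPM, in replicate 4 labelled exosome knockdown. Promoter 233 had 860.4 TPM, where the others of its group had 177 to 275 TPM, in replicate 3 labelled control. Promoter 235 had 143 TPM, where the others of its group had 436 to 485 TPM, in replicate 3 labelled exosome knockdown. The libraries that stood apart were of different replicates and groups. At promoters 51, 93, 114, 145, 233 and 235 the groups did not overlap in TPM. This was a condition for naming promoters 93, 114, 233 and 235, so it is no check on them. Promoters 51 and 145 had a mean of 200 TPM in 1 group alone, and this choice favours a difference too.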

How the results depend on the processing

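Values and calls of the named promoters and windows were recomputed under each alternative, and 606 kept their direction and side of the threshold, 30 lost and 21 gained a call, and 11 changed sign. Of these, the antisense window of promoter 34 was called lower at first and no longer called, and the others were not called in either case. The log2 fold change changed sign with the filter of 10 TPM at promoters 1 (0.073), 34 (0.12) and 260 (0.12), with library totals less the most tagged TC at promoters 1 (0.028), 34 (0.085) and 260 (0.078), and with library totals alone at promoters 34 (0.0095) and 260 (0.0036). That of the antisense window of promoter 14 became 0.021 with library totals alone and 0.0068 without replicate 2 labelled exosome knockdown (lowest without any library -0.17), and that of promoter 34 became 1.47 in a window of 250 bp, which leaves out promoter 14. In that window, with fewer windows tested, 28 windows were lower and 39 higher. Summit use gave 1 higher and 3 lower promoters with 100 tags in every library, and 1 higher with an offset of 5 tags, and the cause was not tested. Leaving out each library in turn gave between 254 and 269 members, between 113 and 133 lower and between 32 and 43 higher promoters, between 42 and 50 lower and between 50 and 55 higher antisense windows and between 81 and 106 lower and between 45 and 53 higher downstream windows. Without trimming 347 TCs reached 200 TPM, and merging within 10 bp gave 223. DESeq2 called 131 lower and 41 higher promoters. Deviations of levels correlated between libraries of the same number by 0.0873 to 0.366 over all TCs tested, where 8 of 8 libraries were closest to their own number, and by 0.144 to 0.533 over the 260 promoters, where 3 of 8 were. One pair over all TCs lay under the limit of 0.1 set for each pair, so the numbers were not taken to pair the libraries. Every pair of the same number was nevertheless positive, and the main p-values leave out any such pairing. With the replicate number as a block 134 promoters were lower and 45 higher, promoters 3, 8 and 14 among them (adjusted p = 0.0336, 0.0474 and 0.0233, edgeR), and with the barcode as a block 141 and 40. With the replicate block, summit use gave 0 calls, 52 antisense windows were lower and 58 higher, and 117 downstream windows were lower and 56 higher. Antisense windows with under 20 tags, 87 of 260, were not tested. Shares of all TCs called under these alternatives are not given here, so the counts show only how far the calls moved.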

Other observations

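The largest difference in summit use among these promoters was at promoter 52 (2L, bases 12404476 to 12404481, minus strand) which was named after its values were seen. Its summit held 39.2, 44.7, 62.4 and 36.5% of the tags in the labelled controls and 20.9, 19.5, 15.95 and 17.2% in the labelled knockdowns, so that the groups did not overlap. Groups without overlap in summit use were found at 3.85% of all TCs tested in this direction. The difference was 1.90 on the log2 odds scale with an adjusted p of 0.0635 in limma and did not pass, and with the barcode or the replicate number as a block no promoter came under an adjusted p of 0.128 or 0.297.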
